A study of Mus musculus with 25 samples.

Results

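Scd1, Scd2, Scd3 and Scd4 (stearoyl-CoA desaturases), Fads1 and Fads2 (front-end fatty acid desaturases), Elovl5, Elovl6 and Elovl7 (fatty acid elongases) and Fasn (fatty acid synthase) are 10 of the 50559 genes in a table of estimated counts from ribosome-bound mRNA of mouse spinal cord cholinergic neurons. The 10 genes were taken by symbol as members of the enzyme families that make, desaturate and lengthen long-chain fatty acids, and they were chosen by a reader who knew that Scd3 and Elovl7 differed between genotypes in these data, so their genotype differences are given as a description. All 10 were in the table, and all 10 passed the filter of at least 10 counts summed over the immunoprecipitated libraries.

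The study asked what deletion of Bmal1 (gene symbol Arntl, the transcriptional activator of the circadian clock) does to mRNA bound to ribosomes in these neurons by day and by night. Controls carried ChAT-Cre and RiboTag fx/+, and ChAT-BKO animals carried in addition a pair of floxed Bmal1 alleles (Bmal1 fx/fx), all male and 6 months old, with 6 libraries per genotype at ZT8 (light period) and 6 at ZT20 (dark period). Zeitgeber time (ZT) counts hours from lights on. Both genotypes carried the ChAT-Cre driver, active in cells that express choline acetyltransferase, and the RiboTag allele, which puts an HA tag on a ribosomal protein so that polysomes of Cre-expressing cells can be immunoprecipitated (IP) from a whole spinal cord. The controls carried no floxed Bmal1 allele. A single input library, pooled from wild-type and knockout material, was made without IP and has no replicate.

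Long-chain fatty acids start with palmitate, which Fasn builds from acetyl-CoA and malonyl-CoA. Elovl6 adds carbons to palmitate to give stearate, and stearoyl-CoA desaturases insert a double bond into saturated acyl chains to give oleate and palmitoleate, the main monounsaturated acids of membranes, triglycerides and myelin. Fads1 and Fads2 act on dietary polyunsaturated acids with Elovl5, and Elovl7 is a further elongase of long-chain acids. In the nervous system these enzymes are abundant in myelinating glia, and Scd2 is the stearoyl-CoA desaturase best known from brain.

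Promoter windows are shown for Scd3 and Elovl7, the members whose libraries separated by genotype at both times, and for Elovl6 and Elovl5, the other elongases, whose time-of-day values are given further on. The windows were read from RefSeq on GRCm38.p6, which matched 7 of the 10 members (Elovl5, Elovl6, Elovl7, Fads2, Fasn, Scd3 and Scd4), and each holds the 250 bases before the RefSeq start site, 5′ to 3′ on the strand of the gene. Capitals mark matches to any of 5 motifs searched on both strands: the E-box CACGTG, at which the BMAL1 dimer is known to bind, the D-box TTATGTAA, the core AGGTCA of the ROR and REV-ERB element, the sterol regulatory element core TCACNCCAC and the CCAAT box.
Scd3, chr19:44203038-44203287 (+): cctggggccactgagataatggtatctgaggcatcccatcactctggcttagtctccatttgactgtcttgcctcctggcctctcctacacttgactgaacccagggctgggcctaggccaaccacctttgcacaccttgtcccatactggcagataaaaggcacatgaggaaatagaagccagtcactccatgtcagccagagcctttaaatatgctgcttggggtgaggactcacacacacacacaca
Elovl7, chr13:108214154-108214403 (+): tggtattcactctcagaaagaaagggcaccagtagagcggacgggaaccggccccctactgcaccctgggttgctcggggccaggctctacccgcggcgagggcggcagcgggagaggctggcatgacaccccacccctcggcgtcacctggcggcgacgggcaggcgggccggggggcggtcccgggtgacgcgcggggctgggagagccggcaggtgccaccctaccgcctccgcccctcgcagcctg
Elovl6, chr3:129532136-129532385 (+): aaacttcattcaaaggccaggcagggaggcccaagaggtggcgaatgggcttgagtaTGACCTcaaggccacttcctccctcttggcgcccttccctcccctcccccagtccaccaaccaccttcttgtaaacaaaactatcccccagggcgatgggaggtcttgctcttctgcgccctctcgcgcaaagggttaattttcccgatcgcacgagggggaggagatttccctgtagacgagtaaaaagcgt
Elovl5, chr9:77917115-77917364 (+): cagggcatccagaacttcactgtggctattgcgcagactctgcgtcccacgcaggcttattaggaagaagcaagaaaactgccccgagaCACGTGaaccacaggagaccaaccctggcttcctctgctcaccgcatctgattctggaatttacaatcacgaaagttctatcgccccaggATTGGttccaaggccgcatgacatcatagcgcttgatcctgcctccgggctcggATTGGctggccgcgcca

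The Scd3 and Elovl7 windows held none of the 5 motifs, and neither did those of Fads2 and Scd4. The Elovl6 window held 1 AGGTCA core on the opposite strand, beginning 193 bases before the start site, a motif found in 14.0% of all 32851 promoter windows of the same length. The Elovl5 window held 1 E-box beginning 161 bases before the start site (6.02% of all windows have at least 1) and 2 CCAAT boxes (33.8% of all windows). Fasn had 3 CCAAT boxes, of which 2 overlap each other as an inverted pair. No member window matched the D-box or the sterol regulatory element core, which occur in 0.819% and 1.05% of all windows. These are matches of letters in short windows and say nothing of binding.

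The 4 Scd genes lie next to each other on chromosome 19, at chr19:44203269-44244016 for Scd3, chr19:44293674-44306864 for Scd2, chr19:44333092-44346743 for Scd4 (all on the plus strand) and chr19:44394455-44407879 for Scd1 (minus strand), in the GENCODE M21 annotation of GRCm38. Their coding sequences are close: identity over aligned bases ranged from 83.8% for Scd2 and Scd4 to 91.5% for Scd1 and Scd3. The stretch of 90 coding bases in which the 4 genes are most alike is shown first, because a read that lies inside it gives little or no base by which to tell the genes apart. Capitals mark bases that differ from Scd3, and all 90 bases lie in 1 exon of each gene.
Scd1, chr19:44401776-44401865 (-): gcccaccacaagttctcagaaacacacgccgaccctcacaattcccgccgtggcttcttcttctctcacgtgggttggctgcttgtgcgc
Scd2, chr19:44299642-44299731 (+): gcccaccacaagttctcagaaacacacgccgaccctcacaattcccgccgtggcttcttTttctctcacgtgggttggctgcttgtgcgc
Scd3, chr19:44235804-44235893 (+): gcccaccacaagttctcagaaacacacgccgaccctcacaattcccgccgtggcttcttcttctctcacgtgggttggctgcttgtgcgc
Scd4, chr19:44338943-44339032 (+): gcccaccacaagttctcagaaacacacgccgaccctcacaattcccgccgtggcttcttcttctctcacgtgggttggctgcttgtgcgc

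The stretch of 90 coding bases in which Scd3 stands farthest from the nearest of the other three is shown next, with the same use of capitals. It crosses an exon junction in each gene, so the coordinates give its first and last base and span an intron.
Scd1, chr19:44403225-44406505 (-): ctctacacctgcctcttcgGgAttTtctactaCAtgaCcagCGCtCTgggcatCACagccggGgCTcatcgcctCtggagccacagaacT
Scd2, chr19:44295168-44298110 (+): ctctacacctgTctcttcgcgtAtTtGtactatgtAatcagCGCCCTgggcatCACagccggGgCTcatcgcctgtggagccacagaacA
Scd3, chr19:44215666-44234293 (+): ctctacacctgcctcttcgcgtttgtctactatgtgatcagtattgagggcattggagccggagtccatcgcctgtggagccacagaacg
Scd4, chr19:44334243-44337571 (+): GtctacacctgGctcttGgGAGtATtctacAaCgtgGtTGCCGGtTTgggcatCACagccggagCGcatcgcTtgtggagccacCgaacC

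Scd1, Scd3 and Scd4 were identical over the first stretch and Scd2 differed at 1 of 90 bases, whereas in the second stretch Scd1 differed from Scd3 at 19 bases, Scd2 at 18 and Scd4 at 27. Over the whole Scd3 transcript, 2.54% of runs of 100 bases and 1.08% of runs of 150 bases also occurred in another Scd transcript, mostly Scd1. The estimation of counts by the authors shared such reads out, and the traces are visible: 28% of the values of Scd1 and 28% of those of Scd3 over the 25 libraries were not whole numbers, against 4% for Scd2 and 0% for every other member.

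The 24 IP libraries held 4035327 to 31685178 counts and the input library 7396572. Values below are counts-per-million (CPM) on library sizes scaled by TMM. Arntl, the targeted gene, ranged from 6.22 to 9.99 CPM in controls at ZT8 (median 8.55) and from 1.97 to 3.30 CPM in ChAT-BKO libraries (median 2.60). At ZT20 it ranged from 7.60 to 10.9 CPM in controls (median 8.50) and from 1.35 to 2.80 CPM in ChAT-BKO libraries (median 1.81). Every ChAT-BKO library lay below every control library, with log2 fold changes of -1.64 at ZT8 and -2.08 at ZT20, which matches the labels.

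Levels of different genes were compared per kilobase of exon, since longer mRNAs give more counts. The order below depends on this division. In mean CPM over the 24 IP libraries, Fasn (210) lay above Elovl5 (104), and Fads1 (44.5) above Fads2 (34.3). Scd2 was by far the highest member, with a mean of 131 CPM per kb over the 24 IP libraries (SD 3.09), followed by Elovl5 (29.5), Fasn (19.2), Scd1 (15.0), Fads2 (10.4), Fads1 (9.25), Elovl6 (6.47), Elovl7 (5.72), Scd3 (1.94) and Scd4 (0.0176). The ranges of Scd2 and Elovl5 did not overlap, and the same held for Scd1 and Fads2, for Elovl7 and Scd3, and for Scd3 and Scd4. Neighbours with overlapping ranges were Elovl5 and Fasn, Fasn and Scd1, Fads2 and Fads1, and Fads1 and Elovl6, although within a library the first of each pair was higher in 24 of 24. Elovl6 exceeded Elovl7 in 12 of 12 control libraries (5.67 ± 0.329 against 4.70 ± 0.310 CPM per kb at ZT8, 7.00 ± 0.566 against 5.24 ± 0.267 at ZT20, SD, n = 6) but in 8 of 12 ChAT-BKO libraries. The latter were 3 of 6 at ZT8 (5.75 ± 0.334 against 5.92 ± 0.505) and 5 of 6 at ZT20 (7.44 ± 0.826 against 7.04 ± 0.487). The order of this pair within libraries was not tested.

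**Figure D1:**
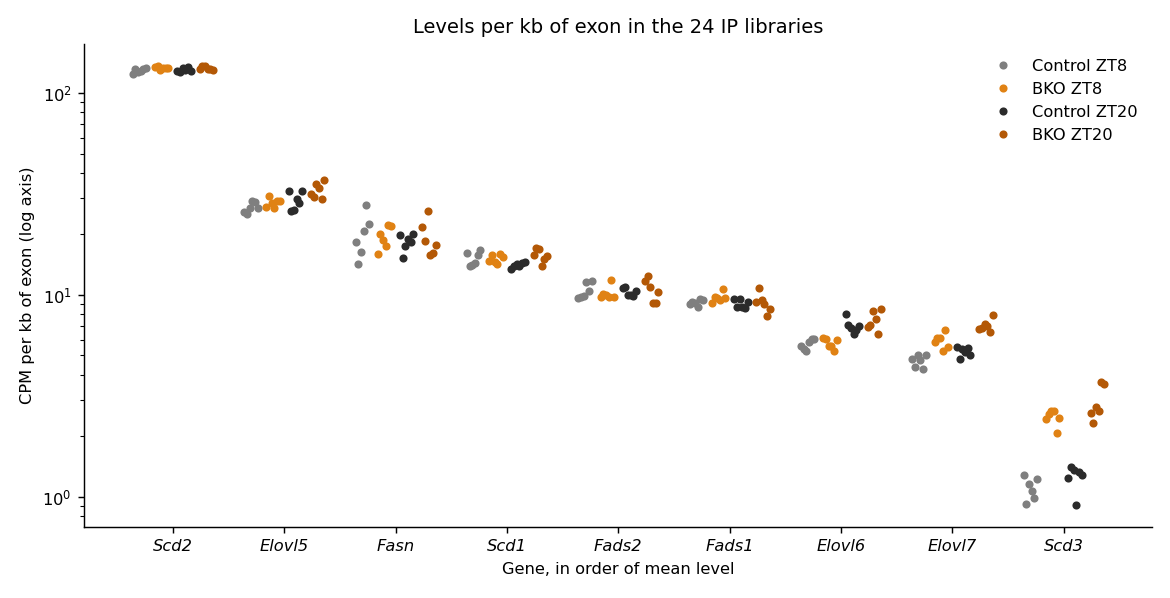
Level of 9 members in CPM per kb of exon (log axis), 1 point per IP library, coloured by genotype and time, with genes ordered by their mean; Scd4 is left out because 11 of its 24 values are 0. Scd2 lies above all other genes at a mean of 131 CPM per kb, and Scd3 is the lowest gene shown, with a mean of 1.94.

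Scd2 was also the steadiest member: its values ran from 677 to 744 CPM over the 24 IP libraries, with a coefficient of variation within groups of 2.14%. Fasn was the most variable of the abundant members (156 to 303 CPM, 17.9% within groups), and Scd3 varied by 16.8% within groups on counts of 24 to 187. Scd4, a paralog known mainly from heart, had 19 counts in all 24 libraries together, with 0 in 11 of them. A count of 0 allowed up to 3 counts, or 0.158 to 0.734 CPM depending on the library, so neither its absence nor any difference was detectable at this depth.

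Members were then set against the single input library, which holds mRNA of the whole cord. Cholinergic markers (Chat, Slc18a3, Slc5a7, Isl1, Ache, Prph) were higher in the mean of the IP libraries for 6 of 6 genes, with a median log2 ratio of 2.65, so the defining markers of the labelled cell type are present. Oligodendrocyte markers were lower for 7 of 7 (median -3.34, range -4.78 to -2.39), as were Schwann cell (4 of 4, median -2.63), astrocyte (5 of 5, -4.25), microglial (5 of 5, -3.98), endothelial (3 of 3, -3.52) and skeletal muscle markers (6 of 6, -2.0). Of the 9 members above 1 CPM in the input library (all but Scd4), 8 were lower in IP than in input, against 52.6% of 14954 genes above 1 CPM in the input library. These are ratios to 1 library, without a test.

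Scd1, Fads1, Fads2 and Scd2 lay low on this scale, with log2 ratios of IP to input of -2.59 for Scd1 (74.2 against 446 CPM), -2.34 for Fads1 (45.1 against 228 CPM), -2.18 for Fads2 (34.7 against 158 CPM) and -1.80 for Scd2 (727 against 2534 CPM). These ratios lie between those of most oligodendrocyte markers and 0. The elongases were nearer to 0, with Elovl7 at -0.93 (23.3 against 44.3 CPM), Elovl6 at -0.61 (42.1 against 64.1 CPM) and Elovl5 at -0.15 (105 against 116 CPM). Fasn was at -0.13 (213 against 234 CPM). Scaled by total counts, all of these ratios were lower. Elovl7, Elovl6, Elovl5 and Fasn then stood at -1.38, -1.06, -0.60 and -0.58, and Scd1, Fads1, Fads2 and Scd2 at -3.04, -2.79, -2.64 and -2.25. Scd3 alone was above 0, at 0.17 (6.97 against 6.20 CPM), which turned to -0.28 when libraries were scaled by their total counts. For single IP libraries on TMM scaling the Scd3 ratio ran from -0.92 to 1.09, and its sign went with genotype. The signs of single libraries on total counts were not examined. TMM-scaled over the IP libraries alone, Scd3 ran from 3.23 to 4.97 CPM in controls and from 7.34 to 13.1 CPM in ChAT-BKO libraries. On TMM scaling the mean thus joins control libraries below the input value with ChAT-BKO libraries above it. Scd4 had 1 count in the input library, which gives no usable ratio.

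**Figure D2:**
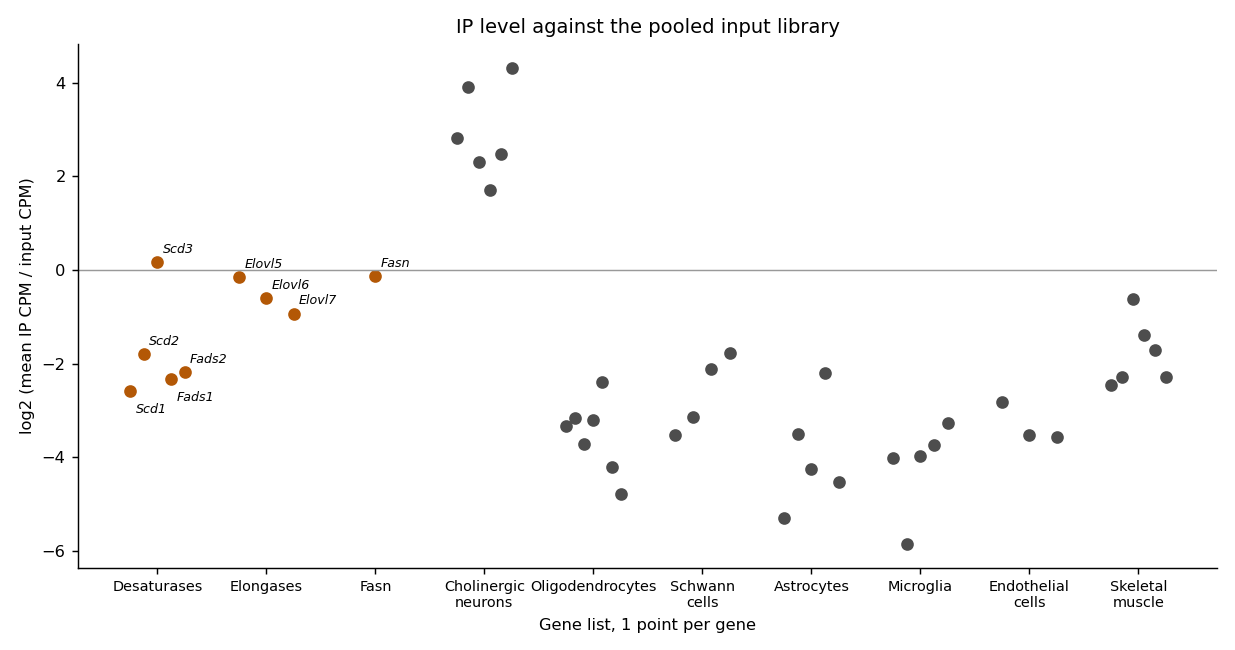
Log2 ratio of the mean CPM of the 24 IP libraries to the CPM of the input library, 1 point per gene, for the desaturases without Scd4, the elongases, Fasn and 7 lists of cell type markers; the line marks equal levels. Scd1, Scd2, Fads1 and Fads2 lie between -2.59 and -1.80, the elongases and Fasn between -0.93 and -0.13, and the cholinergic markers between 1.70 and 4.32.

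Because bulk libraries sum over cells, fewer cells of a type and less RNA per cell cannot be told apart here, and the share of each member's IP counts that came from mRNA of other cells carried through the precipitation was not tested. Summed oligodendrocyte markers ranged from 1594 to 2402 CPM over the 24 IP libraries, and the ranges of the 4 groups overlapped (medians 1742 to 1886 CPM). After removal of group means, none of 9 members (Scd4 left out) correlated with the mean log2 level of these markers over the 24 libraries at an unadjusted permutation p under 0.05. The largest Pearson r was 0.44 for Fads1 (p = 0.117, Spearman rho 0.36, p = 0.131, permutation within groups), which fell to 0.20 without the 2 libraries farthest from the marker median. Fads2 had r = 0.42 (permutation p = 0.114, rho 0.43, p = 0.066).

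Among the stearoyl-CoA desaturases, Scd3 was higher in ChAT-BKO than in control libraries at both times, while Scd1 and Scd2, which hold nearly all Scd counts, stayed close to control levels. Scd3 ranged from 3.26 to 4.52 CPM in controls at ZT8 (median 3.95) and from 7.34 to 9.42 CPM in ChAT-BKO libraries (median 8.94). At ZT20 the controls ranged from 3.23 to 4.97 CPM (median 4.63) and the ChAT-BKO libraries from 8.18 to 13.1 CPM (median 9.62). The lowest ChAT-BKO library was above the highest control library at both times. The mean went from 3.92 ± 0.496 to 8.78 ± 0.780 CPM at ZT8 (SD, n = 6 each), a log2 fold change of 1.20 (SE 0.12, 2.29-fold), and from 4.44 ± 0.6248 to 10.4 ± 2.03 CPM at ZT20, a log2 fold change of 1.19 (SE 0.14, 2.28-fold). The widest spread was in ChAT-BKO mice at ZT20, where 2 libraries, at 12.8 and 13.1 CPM, lay above the rest.

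Scd1, the main stearoyl-CoA desaturase of liver and fat, had a log2 fold change of -0.00 (SE 0.06) by genotype at ZT8 and of 0.15 (SE 0.06) at ZT20, where 5 of 6 ChAT-BKO libraries were above all controls (65.7 to 71.2 CPM in controls, 67.6 to 83.2 CPM in ChAT-BKO). Scd2 had 0.05 (SE 0.04) at ZT8 and 0.02 (SE 0.04) at ZT20. Scd4 had too few counts for a usable fold change. As a share of the counts of all 4 Scd genes, Scd3 made up 0.500% ± 0.0684 in controls and 1.08% ± 0.102 in ChAT-BKO mice at ZT8, and 0.566% ± 0.0795 and 1.29% ± 0.266 at ZT20 (SD, n = 6), against 0.208% in the input library. Scd2 held 89.3% to 90.7% and Scd1 8.77% to 9.44% of Scd counts as group means. When the 4 rows were summed into 1 gene, the sum had log2 fold changes of 0.05 (SE 0.04) at ZT8 and 0.04 (SE 0.04) at ZT20, with neither past the threshold (edgeR adjusted p = 1.00 and 0.896). How the sharing of reads with Scd1 bears on the Scd3 value was not tested.

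**Figure D3:**
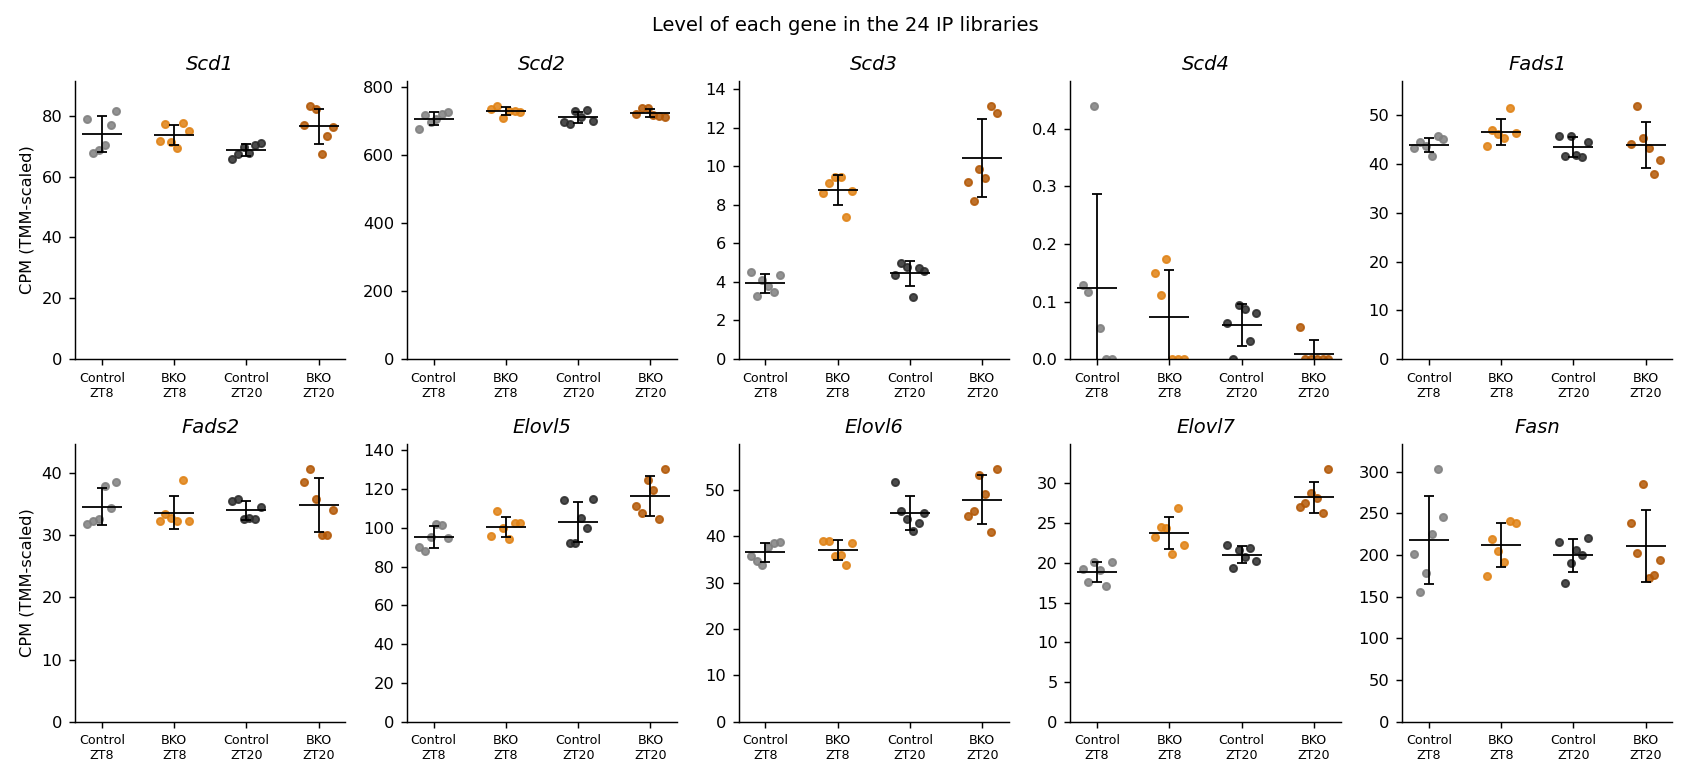
CPM of the 10 members in each IP library (points), with the mean (long bar) and SD (whiskers) of the 6 libraries of each genotype and time; each panel has its own axis from 0, and whiskers below 0 are not drawn. The ChAT-BKO points of Scd3 (7.34 to 13.1 CPM) and Elovl7 (21.1 to 31.8 CPM) lie above the controls of the same time, and the ZT20 points of Elovl6 lie above its ZT8 points in both genotypes.

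The front-end desaturases, which introduce double bonds near the carboxyl end of polyunsaturated acids, sat close to 0 in both genotype comparisons. Fads1 had log2 fold changes of 0.09 (SE 0.06) at ZT8 and 0.01 (SE 0.07) at ZT20, with group means between 43.5 and 46.7 CPM. Fads2 had -0.05 (SE 0.07) and 0.04 (SE 0.08), with group means between 33.6 and 34.9 CPM. Their groups overlapped at both times.

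Of the elongases, Elovl7 was the member whose libraries separated by genotype. At ZT8 it ranged from 17.1 to 20.1 CPM in controls (median 19.2) and from 21.1 to 26.9 CPM in ChAT-BKO libraries (median 23.9). At ZT20 the ranges were 19.4 to 22.2 CPM (median 21.2) and 26.2 to 31.8 CPM (median 27.9). The groups did not overlap at either time. At ZT8 the log2 fold change was 0.33 (SE 0.08, 1.25-fold), from 18.9 ± 1.24 to 23.8 ± 2.03 CPM, and at ZT20 it was 0.41 (SE 0.07, 1.33-fold), from 21.0 ± 1.07 to 28.2 ± 1.95 CPM (SD, n = 6 each). Elovl6, which extends palmitate, had 0.03 (SE 0.06) and 0.08 (SE 0.07), and Elovl5, which extends polyunsaturated acids, had 0.08 (SE 0.06) and 0.17 (SE 0.07), with overlapping groups throughout. Fasn had -0.04 (SE 0.13) and 0.08 (SE 0.10).

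In edgeR's quasi-likelihood test over all genes, Scd3 was thus 1 of 10 members past an adjusted p of 0.05 at ZT8 (adjusted p = 1.57e-05), where 0.184% of the 21732 genes tested passed, and Elovl7 was not past it (adjusted p = 0.150). At ZT20, Scd3 (adjusted p = 6.54e-05) and Elovl7 (adjusted p = 0.00469) were 2 of 10, where 0.230% of 21731 genes passed. Members without overlap between genotypes were 2 of 10 at each time, against 0.571% of all genes at ZT8 and 0.506% at ZT20. The members were chosen by a reader who had seen these comparisons, so nothing is read from these counts. The ZT8 call of Elovl7 depends on the setting: its adjusted p was 0.0450 with DESeq2, 0.0217 with all 24 libraries in 1 fit and 0.0154 with a length slope of each library as a covariate. These settings also called more genes over the whole table. Against 28 higher and 12 lower in the main fit, they called 49 and 21, 35 and 15, and 111 and 51.

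**Figure D4:**
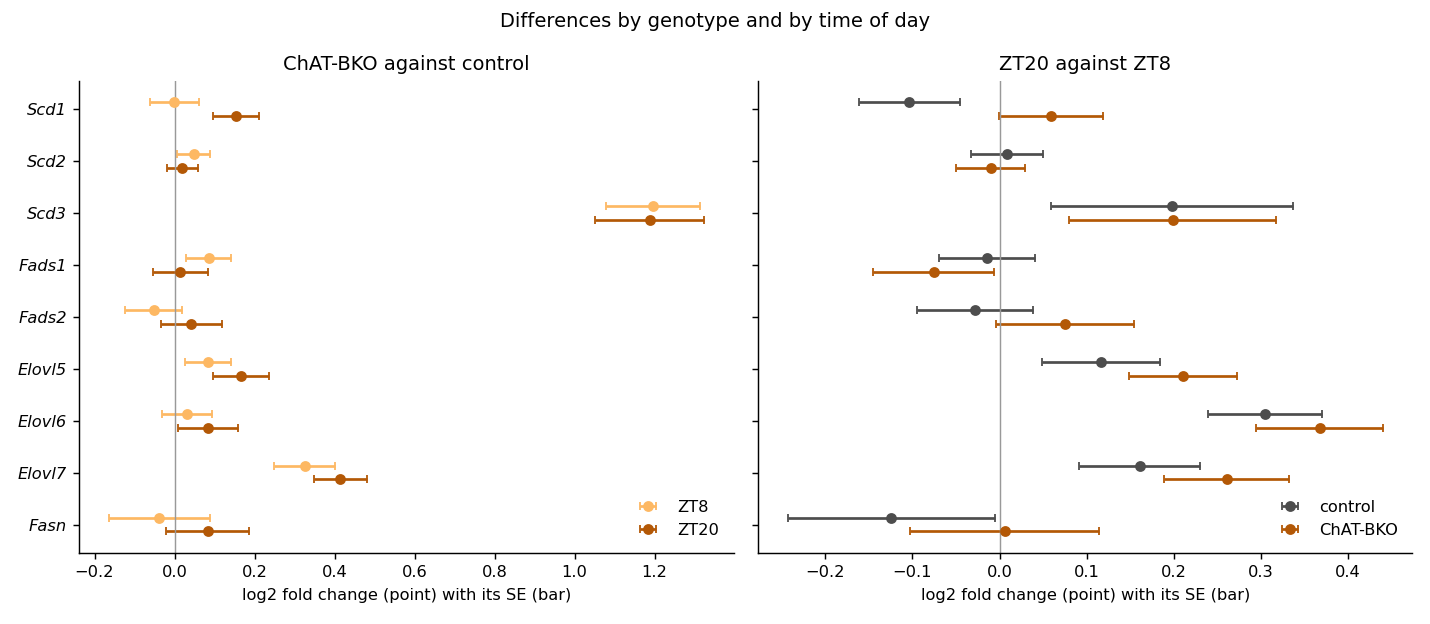
Log2 fold change (point) with its SE (bar) from edgeR for 9 members, by genotype at ZT8 and ZT20 (left) and by time of day in controls and ChAT-BKO (right); Scd4 is left out, and the panels have different axes. Scd3 stands at 1.20 and 1.19 and Elovl7 at 0.33 and 0.41 on the left, and Elovl6 at 0.30 and 0.37 on the right.

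Markers of other cells gave the following values beside these differences. By genotype at ZT20, 6 of 6 skeletal muscle markers had a positive log2 fold change (median 2.15, 4 called), with sums of 5.37 to 20.7 CPM in controls and 3.56 to 73.7 CPM in ChAT-BKO libraries. At ZT8, 2 of 6 were positive (median -0.11). The log2 fold changes of Scd3 at ZT8 and ZT20 were 1.20 and 1.19, and those of Elovl7 were 0.33 and 0.41. Adipocytes are a cell type rich in Scd enzymes. Of their listed markers, Adipoq, Cidec, Retn and Cfd passed the count filter, and Plin1 was left out. These 4 markers summed to a median of 0.166 to 0.457 CPM per group and to at most 8.82 CPM in 1 ChAT-BKO ZT20 library. Their log2 fold changes by genotype had a median of 2.25 at ZT20, with 4 of 4 positive, and of -1.07 at ZT8, with 1 of 4 positive. At ZT8 and ZT20, median log2 fold changes by genotype were 0.14 (6 of 7 positive) and 0.005 (4 of 7) for oligodendrocyte markers. Microglial markers had 0.09 (5 of 5) and 0.02 (3 of 5), and Schwann cell markers -0.14 (0 of 4) and -0.07 (2 of 4). Astrocyte markers had -0.04 (1 of 5) and 0.03 (4 of 5), and endothelial markers -0.11 (1 of 3) and -0.05 (1 of 3). The part of any of these cells in the genotype differences was not tested.

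Whether the genotype difference itself changed between ZT8 and ZT20 was tested with the interaction term over 24 libraries. In edgeR the difference of log2 fold changes was 0.00 for Scd3 (SE 0.19, unadjusted p = 0.985, adjusted p = 1.00), 0.10 for Elovl7 (SE 0.09, unadjusted p = 0.276, adjusted p = 1.00) and 0.17 for Scd1 (SE 0.08, unadjusted p = 0.0446, adjusted p = 1.00). None of the 10 members was called, and 1 had an unadjusted p under 0.05. Over all 21738 genes 0% were called by edgeR (848 at an unadjusted p under 0.05), with 0 calls also by limma voom and by DESeq2.

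By time of day, Elovl6 was higher at ZT20 than at ZT8 in both genotypes. Whether these comparisons were seen when the members were chosen is not known. In controls it ranged from 33.8 to 38.8 CPM at ZT8 (median 36.6) and from 41.2 to 51.7 CPM at ZT20 (median 44.4). In ChAT-BKO mice it ranged from 33.8 to 39.0 CPM at ZT8 (median 37.2) and from 40.9 to 54.5 CPM at ZT20 (median 47.2). The times did not overlap in either genotype. The mean went from 36.5 ± 2.12 to 45.0 ± 3.64 CPM in controls, a log2 fold change of 0.30 (SE 0.07, edgeR adjusted p = 0.107), and from 37.0 ± 2.15 to 47.9 ± 5.31 CPM in ChAT-BKO mice, 0.37 (SE 0.07, adjusted p = 0.0316). The exact permutation test on mean CPM gave p = 0.00216 in each genotype, two-sided, which is the smallest p that 6 against 6 libraries allow. All exact permutation p-values by time, here and below, are unadjusted and come from 20 tests. They use the same libraries as edgeR and are no separate evidence. The difference between genotypes in this time effect was 0.06 (SE 0.10, edgeR adjusted p = 1.00).

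The ChAT-BKO call of Elovl6 was lost without any of the 6 ChAT-BKO ZT8 libraries and without ZT20 replicate 2, 3 or 6 (adjusted p up to 0.0993), and with limma voom (adjusted p = 0.0575), while its log2 fold change stayed between 0.33 and 0.40 over the 12 libraries left out in turn. In controls the call was gained with DESeq2 (adjusted p = 0.00560) and with the length slope as a covariate (adjusted p = 0.00117). Over all genes, calls by time in controls were 21 higher and 4 lower in the main fit. They were 73 and 54 with DESeq2 and 199 and 160 with the slope.

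The other elongases also had positive differences, which were smaller. Elovl7 went from 18.9 to 21.0 CPM in controls (log2 fold change 0.16, SE 0.07, edgeR adjusted p = 0.554, exact permutation p = 0.00866) and from 23.8 to 28.2 CPM in ChAT-BKO mice (0.26, SE 0.07, adjusted p = 0.179, exact permutation p = 0.00433). In each genotype 5 of 6 ZT20 libraries lay above all ZT8 libraries. Elovl5 went from 95.2 to 103 CPM in controls (0.12, SE 0.07, adjusted p = 0.682, exact permutation p = 0.141) and from 100.5 to 116 CPM in ChAT-BKO mice (0.21, SE 0.06, adjusted p = 0.212, exact permutation p = 0.00649). Neither gene passed the test adjusted over all genes in either genotype in the main edgeR fit. With the length slope as a covariate both passed in ChAT-BKO mice (Elovl5 edgeR adjusted p = 0.0170, Elovl7 0.0288). That setting called 285 genes higher and 200 lower, against 50 and 12 in the main fit.

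The desaturases and Fasn did not pass the test by time of day. Scd3 had log2 fold changes of 0.20 (SE 0.14) in controls and 0.20 (SE 0.12) in ChAT-BKO mice, and Scd1 had -0.10 (SE 0.06) and 0.06 (SE 0.06). Scd2, Fads1 and Fads2 lay between -0.08 and 0.08 in both genotypes, and Fasn had -0.12 (SE 0.12) and 0.01 (SE 0.11). In controls 0 of 10 members were called by edgeR (2 at an unadjusted p under 0.05), against 0.115% of 21732 genes called and 8.25% at an unadjusted p under 0.05. DESeq2 called 1 member, with 73 genes called higher and 54 lower over the whole table, and limma voom called 0 members, with 26 genes higher and 8 lower. In ChAT-BKO mice 1 of 10 was called, against 0.285%. Elovl6 was the 1 member of 10 without overlap between times in each genotype, against 0.939% of genes in controls and 1.18% in ChAT-BKO mice. These comparisons share their libraries with the genotype comparisons above. Beside them, oligodendrocyte markers had median log2 fold changes by time of 0.09 in controls and 0.08 in ChAT-BKO mice, Schwann cell markers 0.14 and 0.26, endothelial markers 0.40 and 0.29, astrocyte markers 0.08 and 0.17, microglial markers 0.05 and 0.09, skeletal muscle markers -1.38 and 0.79, and adipocyte markers -0.32 and 2.98. The part of these cells in the time differences was not tested.

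The spread of Fasn ran with a measure computed over all genes of a library. For each library the slope of log2 CPM on log2 exon length over genes was computed, and it ran from 0.163 to 0.371, with overlapping ranges in the 4 groups (medians 0.221 to 0.247). With group means removed, Fasn (exons of 10947 bases, the longest member) correlated with this slope at Pearson r = 0.96 and Spearman rho 0.96 over 24 libraries (permutation p = 1e-05 for each, the smallest that 100000 permutations within groups give), and at r = 0.94 without the 2 libraries farthest from the median slope. The relation was added after the data were seen and is 1 of 9 computed. Since the slope was fitted to the log2 CPM of these same libraries, long genes as a group tend to follow it by construction. A single gene need not. Among the other members r did not fall in order of exon length. From the longest, r was 0.35 for Elovl6 (6431 bases), 0.42 for Scd2 (5464), 0.66 for Scd1 (4892) and 0.46 for Fads1 (4812). It was then 0.12 for Elovl7 (4013), -0.25 for Scd3 (3552), 0.51 for Elovl5 (3522) and 0.55 for Fads2 (3295). The part of length in these values was not tested. The permutation p-values, here and for the members below, are set against no relation and not against what length alone gives. The share of all genes that follow the slope is not given, so nothing particular to the members is read from them. Scd1 followed it with r = 0.66 (permutation p = 0.00392, rho 0.67, p = 0.00273, r = 0.64 without the 2 farthest libraries). Fads1 had r = 0.46 (permutation p = 0.0436, rho 0.56, p = 0.00858), Fads2 0.55 (permutation p = 0.0221, rho 0.68, p = 0.00204) and Elovl5 0.51 (permutation p = 0.013, rho 0.48, p = 0.0217), and without the 2 farthest libraries their r was 0.46, 0.68 and 0.44. In contrast, Elovl6 (r = 0.35, permutation p = 0.132), Elovl7 (0.12, p = 0.597), Scd2 (0.42, p = 0.0609) and Scd3 (-0.25, p = 0.289) did not pass 0.05 for r. With the slope as a covariate the SE of Fasn at ZT8 fell from 0.13 to 0.04, and Fasn by genotype then stood at -0.04 (ZT8) and -0.03 (ZT20) on the log2 scale. What sets the slope was not tested.

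**Figure D5:**
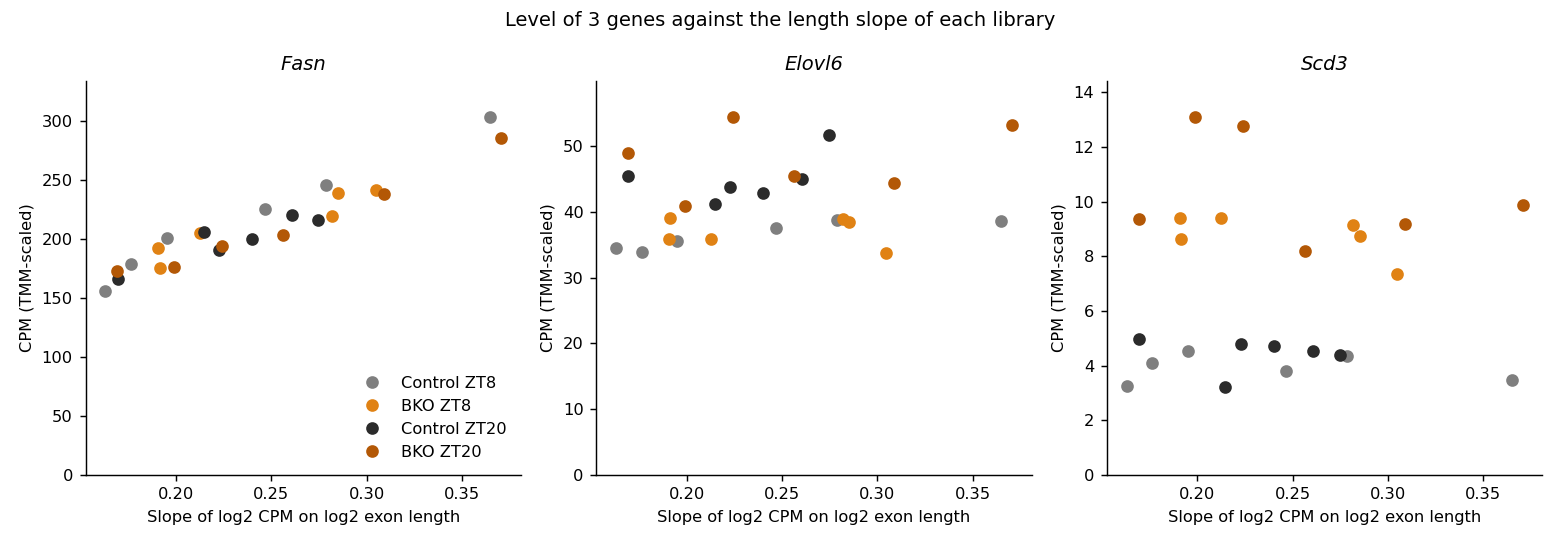
CPM of Fasn, Elovl6 and Scd3 in each of the 24 IP libraries against the slope of log2 CPM on log2 exon length in that library, coloured by genotype and time. Fasn rises with the slope, from 156 to 303 CPM over the libraries, whereas the ZT20 points of Elovl6 and the ChAT-BKO points of Scd3 stay high at every slope.

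The other genes of the pathway were taken from a list of 46: the rest of the elongation cycle, other desaturases and their electron donors, enzymes of precursor supply, acyl-CoA synthetases and acyltransferases, and regulators such as SREBP, LXR, ChREBP and the PPARs. Of these, 45 were tested, since Elovl3 had too few counts. Median log2 fold changes were -0.00 and 0.02 by genotype at ZT8 and ZT20, -0.03 and 0.02 by time in controls and ChAT-BKO mice, and 0.02 for the difference of genotype effects, beside medians over all genes of 0.00, -0.01, 0.00, 0.00 and 0.00. In edgeR 0 of 45 were called in any of these 5 comparisons (2, 5, 6, 5 and 1 at an unadjusted p under 0.05, where 4.84%, 6.29%, 8.25%, 9.42% and 3.9% of all genes had one), with 0 calls also by limma voom and by DESeq2. The smallest adjusted p was 0.520 by genotype, at ZT20, and 0.340 by time, in ChAT-BKO mice.

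The list members with the smallest unadjusted p by genotype were all at ZT20. Mlxipl, which encodes the glucose-responsive activator ChREBP, was at 0.606 ± 0.298 CPM in controls and 1.20 ± 0.283 in ChAT-BKO libraries (log2 fold change 0.94, SE 0.31, edgeR unadjusted p = 0.00713, adjusted p = 0.520). Ppard, a nuclear receptor for fatty acids, was at 10.9 ± 0.687 and 12.7 ± 0.824 CPM (0.23, SE 0.08, unadjusted p = 0.0116, adjusted p = 0.622). Lpcat3, which loads polyunsaturated acyl chains into phospholipids, was at 4.07 ± 0.698 and 5.41 ± 1.24 CPM (0.43, SE 0.16, unadjusted p = 0.0152, adjusted p = 0.667). None of these passed the test over all genes, so they are values and not calls.

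Finally, the genes whose log2 CPM ran most closely with Scd3 and with Elovl7 over the 24 IP libraries were listed among 10429 genes with a mean of at least 5 CPM, as a description. For Scd3 these were Cdkn1a (r = 0.93), Cry2 (0.93), Cry1 (0.92), Arl6ip1 (0.92) and Plch2 (0.91), and for Elovl7 they were Cdkn1a (0.90), Nfil3 (0.85), Cry2 (0.85), Per2 (0.85) and Scd3 (0.84). Cdkn1a encodes the cell cycle inhibitor p21, Cry1, Cry2 and Per2 encode clock repressors, and Nfil3 encodes a bZIP repressor of the D-box. Each r holds the genotype difference that the libraries share. With group means removed, r was 0.43 for Cdkn1a, 0.15 for Cry2, -0.30 for Cry1, 0.47 for Arl6ip1 and 0.14 for Plch2 with Scd3, and 0.36 for Cdkn1a, -0.20 for Nfil3, 0.08 for Cry2, 0.08 for Per2 and 0.12 for Scd3 with Elovl7. Elovl7 was the gene of rank 16 for Scd3.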

How the data were processed

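Estimated counts per gene were deposited by the authors for 24 IP libraries and 1 input library. They were made, per the submitters' processing notes and the methods, by alignment with STAR 2.7.5 to mm10 and estimation with RSEM, from a stranded mRNA kit. RSEM divides reads that fit several genes, so 6.11% of values were not whole numbers. Per the methods, each IP library came from 1 spinal cord, the input was pooled, and samples of an experiment were processed on 1 day. The members and all gene lists were chosen with earlier results of these data known.

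Counts were rounded to whole numbers. A gene was tested where its sum over all 24 IP libraries reached 10 (21738 genes). Genotypes were compared at each time and times within each genotype, 12 libraries each, with edgeR 4.0.16 (R 4.3.3; TMM, quasi-likelihood test, Benjamini-Hochberg over all genes), called at an adjusted p under 0.05. Over 24 libraries, the same model gave the difference of genotype effects. SE is the absolute log2 fold change over the square root of F. Log2 CPM values for correlations used a prior count of 2. Time differences of single members also had an exact permutation test, two-sided. Exon lengths and transcripts came from GENCODE M21 on GRCm38, promoters from RefSeq GRCm38.p6, and alignments of coding sequences from MAFFT 7.526. The named genes were the 10 members, Arntl, pathway genes past the threshold or, as none passed, the 3 with the smallest unadjusted genotype p, and the 5 genes most like Scd3 and like Elovl7. Alternatives were DESeq2 1.42.0, its size factors, other filters, limma 3.58.1 voom, all libraries in 1 fit, a replicate block, summed Scd rows, a length slope covariate and each library left out. The code was tested on simulated data. Replicates of a group differed by more than sampling noise in all 60 pairs (chi-square per degree of freedom 1.86 to 27.8).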

Additional observations from a re-analysis of the deposited data

Results flagged for a closer look

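Of 40 sets of 6 libraries (10 members in 4 groups), 4 held a library far from the other 5 by Dixon's test. Chance flags about 1 in 20 such sets. Fads2 was at 38.9 CPM in ChAT-BKO ZT8 replicate 5, where the next library was at 33.4 CPM. Scd3 was at 3.23 CPM in control ZT20 replicate 4, below the next library at 4.37 CPM and so farther from the ChAT-BKO range. Scd4 was at 0.439 CPM (3 counts) in control ZT8 replicate 3, where the next was at 0.129 CPM, and at 0.0563 CPM (1 count) in ChAT-BKO ZT20 replicate 1, where the other 5 had 0 counts. The cause of none of these was tested.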

How the results depend on the processing

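The calls of Scd3 at both times and of Elovl7 at ZT20 held in every fit that kept their rows and with each library left out (log2 fold changes of Scd3 1.14 to 1.24 at ZT8 and 1.12 to 1.24 at ZT20). Both genes were chosen with these differences known, so these refits of the same libraries describe the settings and are no support. Members called at ZT8 went from 1 to 2, by Elovl7, with DESeq2, with all 24 libraries in 1 fit and with the length slope, and to 0 with the Scd rows summed, which takes Scd3 out; the same sum left 1 at ZT20. By time in controls 1 member (Elovl6) instead of 0 was called with DESeq2 and with the slope. By time in ChAT-BKO mice 0 instead of 1 were called with limma voom, 3 with the slope (Elovl5, Elovl6 and Elovl7), and 0 to 1 with a library left out. The slope raised calls over all genes as well, by time in ChAT-BKO mice from 50 higher and 12 lower to 285 and 200. By time in controls they went from 21 and 4 to 199 and 160, and by genotype at ZT8 from 28 and 12 to 111 and 51. The slope also gained 1 pathway gene by time in each genotype, named after its values were seen: Hsd17b12 in controls (log2 fold change 0.21, edgeR adjusted p = 0.0144) and Mbtps1 in ChAT-BKO mice (-0.19, adjusted p = 0.0218). On total-count CPM, 1 member instead of 0 correlated with oligodendrocyte markers. The cause of these shifts was not tested.

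Same-numbered libraries deviated together in some pairs only: their correlations over 5000 genes ran from -0.60 to 0.80 over the 4 comparisons, with 12 of 24 above 0.1, and a library correlated best with its own number in 1 to 3 of 6 cases. With the replicate block, Elovl6 was the 1 member called by time in controls (adjusted p = 0.0445), 0 were called by time in ChAT-BKO mice (Elovl6 adjusted p = 0.0549), and genotype counts were 1 at ZT8 and 2 at ZT20. Calls over all genes by time in controls went from 25 to 62 higher and 24 lower.

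Signs that changed belonged to uncalled values near 0. With the block, Scd1 by genotype at ZT8 was 0.00265 and Fasn by time in ChAT-BKO mice -0.0106. The latter was also -0.00767 with DESeq2, -0.00291 with its size factors, -0.00411 with filterByExpr, -0.0128 with limma voom and -0.0532 with the slope. The slope gave -0.00797 for Fads1 and -0.0320 for Fasn by genotype at ZT20. Scd2 by time in controls was -0.000669 with filterByExpr. The interaction of Scd3 was -0.0273 with DESeq2, -0.00313 without a filter, -0.000937 with filterByExpr and -0.00177 with limma voom, which gave 0.0191 for Scd4. The Scd3 input ratio was -0.28 on total counts. With a library left out, log2 fold changes by genotype ran from -0.0287 to 0.0329 for Scd1, -0.788 to 0.213 for Scd4 and -0.121 to 0.0738 for Fasn at ZT8, and from -0.0372 to 0.0484 for Fads1, -0.00335 to 0.0843 for Fads2 and -0.0271 to 0.138 for Fasn at ZT20. By time they ran from -0.00638 to 0.0190 for Scd2, -0.0309 to 0.000601 for Fads1 and -0.0548 to 0.00743 for Fads2 in controls, and from -0.0999 to 0.0596 for Fasn in ChAT-BKO mice. Depth limits Scd4, with 19 counts in all.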
